A study of Mus musculus with 10 samples.

Results

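Cytochromes P450 are haem enzymes of the endoplasmic reticulum and mitochondria that put oxygen into lipids, steroids and drugs. Their genes of families 1 to 4 were followed here, since these families hold the enzymes best known for drug and fatty acid turnover. Every gene of the deposited count table whose symbol had the form of a functional member of those families was taken, a family number from 1 to 4, 1 letter and a number. The rule found 75 of 55487 genes, with 3 in family 1, 48 in family 2, 7 in family 3 and 17 in family 4. Another 39 symbols of similar form, 32 of them named as pseudogenes, fell outside it.

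Gene expression was measured by sequencing of polyA RNA from 10 primary pancreatic tumours of KPF mice, which are bred to develop this cancer, on the C57BL/6J background. The 5 tumours labelled Grem1-deleted came from mice given tamoxifen at 100 mg/kg daily over 5 days, starting when they were 5 weeks old. The 5 Grem1 wild-type tumours came from mice given peanut oil on that schedule. The age given for use in experiments was 6 to 12 weeks for both. The labels spell out neither the KPF alleles nor the recombinase behind the deletion, and they call the material bulk tumour while the RNA protocol speaks of sorted cells. Deletion and drug were given to the same mice, so their effects cannot be told apart. Mice had the drug before tumours were taken, and the time between is not stated.

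P450 enzymes of families 1 to 3 are best known from liver and small intestine, where they make drugs and dietary chemicals easier to excrete. In humans, CYP2D6 and CYP3A4 turn tamoxifen into its more active metabolites. The aryl hydrocarbon receptor (Ahr) drives family 1, the pregnane X receptor (Nr1i2) and the constitutive androstane receptor (Nr1i3) drive much of families 2 and 3, and PPARalpha (Ppara) drives Cyp4a genes. Family 4 mostly hydroxylates fatty acids and their signalling derivatives. Electrons for all of these reach the haem through the reductase encoded by Por.

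The promoters below belong to genes on which the results turn. Cyp1b1 was by median the most abundant P450 transcript, and Cyp1a1 its barely detected relative under the same receptor. Cyp3a11, Cyp2c68 and Cyp2d26 stand for genes that were high in 1 tumour alone. Each sequence is the 250 bases before the RefSeq transcript start in GRCm38.p6, written 5′ to 3′ on the strand of the gene. The positions are chr17:79715062-79715311, minus strand, for Cyp1b1, chr9:57697363-57697612, plus strand, for Cyp1a1, and chr5:145879855-145880104, minus strand, for Cyp3a11. Those of the remaining pair are chr19:39741102-39741351, minus strand, for Cyp2c68, and chr15:82794246-82794495, minus strand, for Cyp2d26. Capitals mark matches on either strand to GCGTG, the core bound by the aryl hydrocarbon receptor, GTTAAT, a core of the HNF1 site, CAAAGTCCA, a site of HNF4, and TATAAA, the TATA box.
Cyp1b1: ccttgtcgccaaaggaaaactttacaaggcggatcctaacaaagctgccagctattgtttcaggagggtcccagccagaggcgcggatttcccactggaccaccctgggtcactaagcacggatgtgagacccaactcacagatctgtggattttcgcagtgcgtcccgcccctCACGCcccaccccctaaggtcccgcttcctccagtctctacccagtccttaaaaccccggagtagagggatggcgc
Cyp1a1: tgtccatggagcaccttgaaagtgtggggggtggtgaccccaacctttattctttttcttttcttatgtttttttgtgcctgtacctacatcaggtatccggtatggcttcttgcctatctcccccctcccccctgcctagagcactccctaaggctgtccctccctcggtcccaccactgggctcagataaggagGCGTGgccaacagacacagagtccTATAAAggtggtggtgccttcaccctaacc
Cyp3a11: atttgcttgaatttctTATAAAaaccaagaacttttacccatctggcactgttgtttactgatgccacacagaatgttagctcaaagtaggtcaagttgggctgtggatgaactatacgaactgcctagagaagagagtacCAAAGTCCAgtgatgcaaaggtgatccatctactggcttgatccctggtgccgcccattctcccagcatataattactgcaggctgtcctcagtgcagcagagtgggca
Cyp2c68: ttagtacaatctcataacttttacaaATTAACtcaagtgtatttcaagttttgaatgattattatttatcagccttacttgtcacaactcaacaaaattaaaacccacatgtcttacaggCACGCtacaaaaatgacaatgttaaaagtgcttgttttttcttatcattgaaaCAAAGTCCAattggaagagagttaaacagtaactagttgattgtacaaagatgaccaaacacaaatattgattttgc
Cyp2d26: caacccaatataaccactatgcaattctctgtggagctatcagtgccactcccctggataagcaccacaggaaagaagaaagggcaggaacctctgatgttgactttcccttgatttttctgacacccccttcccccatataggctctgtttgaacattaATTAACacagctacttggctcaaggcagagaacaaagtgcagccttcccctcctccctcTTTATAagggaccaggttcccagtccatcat

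The printed family 1 promoters each held 1 core of the aryl hydrocarbon receptor, 76 to 72 bases before the start in Cyp1b1 (on the opposite strand) and 54 to 50 bases before it in Cyp1a1. The third, of Cyp1a2, held 0. The HNF4 site stood 109 to 101 bases before the start of Cyp3a11 and 77 to 69 bases before that of Cyp2c68. Cyp2d26 held the HNF1 core 90 to 85 bases before its start. RefSeq promoters were at hand for 62 of the 75 genes, 69 promoters in all, and each letter string was searched on both strands. CAAAGTCCA was found in 8 of the 69 (11.6%), against 0.384% of all 32851 promoters of this length. The 8 belonged to Cyp2c40, Cyp2c65, Cyp2c67, Cyp2c68, Cyp2c69, Cyp2c70, Cyp3a11 and Cyp3a16, which lie in the gene clusters on chromosomes 19 and 5, so that they are neighbours and relatives and not independent of each other. Of their transcripts' stretches of 50 bases, Cyp2c40, Cyp2c67, Cyp2c68 and Cyp2c69 shared 43.3% to 60.3% with other genes, Cyp2c65 20.6%, Cyp3a16 10.7%, Cyp3a11 6.73% and Cyp2c70 0%. GTTAAT was in 13.0% of the P450 promoters against 6.43% of all, TATAAA in 34.8% against 12.4%, and GCGTG in 18.8% against 28.2%. The nuclear receptor core AGGTCA, left in lower case above, was in 24.6% against 14%. The consensus oestrogen response element, an inverted repeat that holds all but the first letter of that core on each side, was in 0% against 0.0639%. These are matches of letters in a short window and say nothing of binding in these tumours.

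Total estimated counts ran from 10159891 to 18571519 per tumour. Markers of the exocrine pancreas were measured in all, with 8 acinar genes summing to 73.7 to 13206 CPM (counts scaled to library size) in tumours labelled deleted and 26.3 to 17443 CPM in wild-type tumours. The targeted gene, Grem1, was not lower in the tumours labelled deleted, which held 47.6, 110.1, 12.6, 6.83 and 23.7 CPM, against 15.7, 43.1, 23.0, 3.97 and 9.48 CPM in wild-type tumours, so groups are called by their labels. A pair of libraries stood apart in these genes before any comparison. Of the 17 P450 genes with enough counts to be tested, labelled-deleted tumour 1 had a lower value than every one of the 8 tumours other than 1 and 2 in 12, and labelled-deleted tumour 2 a higher value in 9. Tumour 1 also held the least epithelial marker RNA (6 genes, summed 1720 CPM, against 3224 to 5299 CPM in the other 9). Tumour 2 held 3671 CPM of 12 intestinal epithelium markers, against 220.5 to 513 CPM in the others. Group values are therefore given tumour by tumour and, where it matters, without tumour 2.

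Which P450 genes these pancreatic tumours expressed was examined first. At a level of 1 CPM, 11 of the 75 genes were expressed in all 10 tumours: Cyp1b1, Cyp2d22, Cyp2j6, Cyp2s1, Cyp3a13, Cyp4b1, Cyp4f13, Cyp4f16, Cyp4f17, Cyp4f18 and Cyp4v3. A further 7 reached it in 2 to 9 tumours and 13 in 1 tumour alone. Counts stayed below that level in 29, and 15 had a count of 0 in every tumour. A count of 0 allows up to 0.160 to 0.302 CPM, depending on the tumour (3 counts, counting error only). The genes at 0 throughout were Cyp1a2, a liver enzyme of caffeine metabolism, and members of the Cyp2a, Cyp2b, Cyp2c, Cyp2g, Cyp2j, Cyp3a and Cyp4a groups. With 0.5 CPM as the level, 14 genes were expressed in all tumours and 36 in at least 1, and with 2 CPM 10 and 29.

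**Figure D1:**
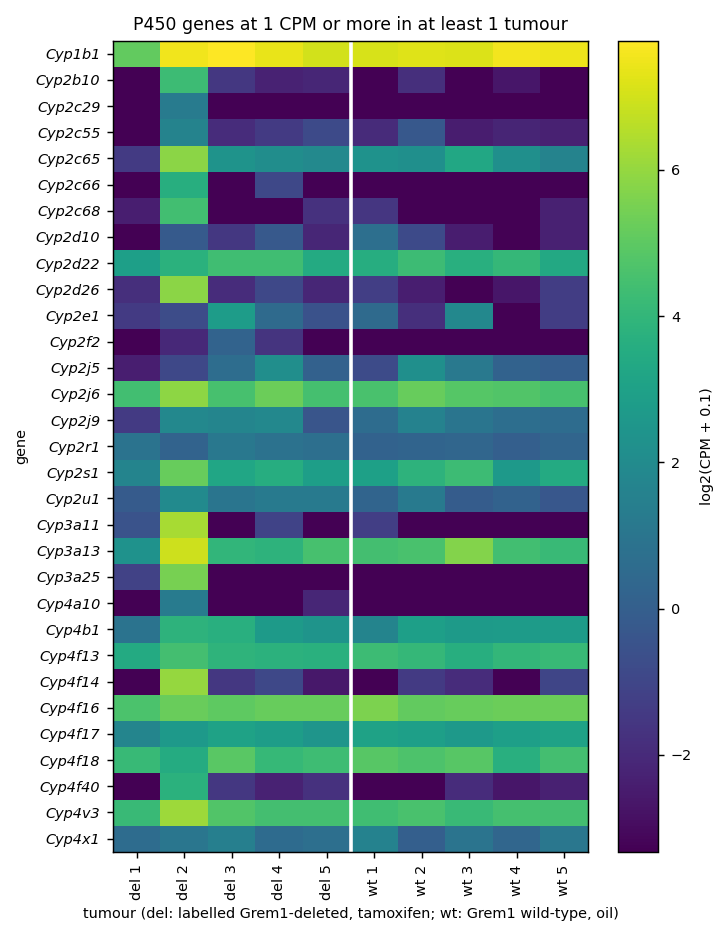
Level of the 31 P450 genes that reached 1 CPM in at least 1 tumour, as log2(CPM + 0.1), with genes down the page and the 10 tumours across it, labelled Grem1-deleted (del) left of wild-type (wt). The 11 genes expressed in all tumours stand out in every column, and another 11 reach 1 CPM in labelled-deleted tumour 2 alone.

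Per kilobase of exon, the order of levels over the 10 tumours was led by Cyp1b1, with a median of 27.0 CPM per kb and quartiles of 23.6 and 31.0. Cyp4f16 followed at 11.9 (quartiles 11.4 and 12.4) and Cyp4f18 at 11.3 (9.26 and 15.2), and these neighbours did not differ beyond their spread. Cyp3a13 stood at 7.29 (5.52 and 7.99), and the quartiles of Cyp2j6 at 7.11 (6.41 and 9.46) overlapped its own. Those of Cyp4v3 at 5.76 (5.50 and 6.19) CPM per kb overlapped those of Cyp3a13 and lay under those of its neighbour Cyp2j6. From Cyp4f13 at 3.48 CPM per kb the levels ran down through Cyp2d22, Cyp4b1, Cyp2c65 and Cyp4f17 to Cyp2s1 at 2.06, and the next gene, Cyp2r1, was at 0.535.

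Summed over all 75 genes, the tumours labelled deleted held 154, 966, 441, 378 and 306 CPM, against 349, 377, 389, 377 and 369.5 CPM in wild-type tumours. The wild-type tumours lay close together, while those labelled deleted lay on both sides of them. Means were 449 ± 308 CPM in tumours labelled deleted and 372 ± 14.8 CPM in wild-type tumours (SD, n = 5 each). Without labelled-deleted tumour 2, a choice made after the values were seen, the first mean was 319.7 ± 123 CPM (n = 4). The number of P450 genes at 1 CPM or more was 13, 27, 19, 18 and 15 in tumours labelled deleted, and 18, 16, 17, 16 and 15 in wild-type tumours. By CPM not divided by length, Cyp1b1 led the P450 genes in every tumour, taking from 18.8% of the sum in labelled-deleted tumour 2 to 50.1% in wild-type tumour 4. Per kilobase it led in 8 of the 10, while Cyp4f18 led labelled-deleted tumour 1 (9.40 CPM per kb, against 5.91 for Cyp1b1) and Cyp3a13 led labelled-deleted tumour 2 (41.2 against 31.2).

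**Figure D2:**
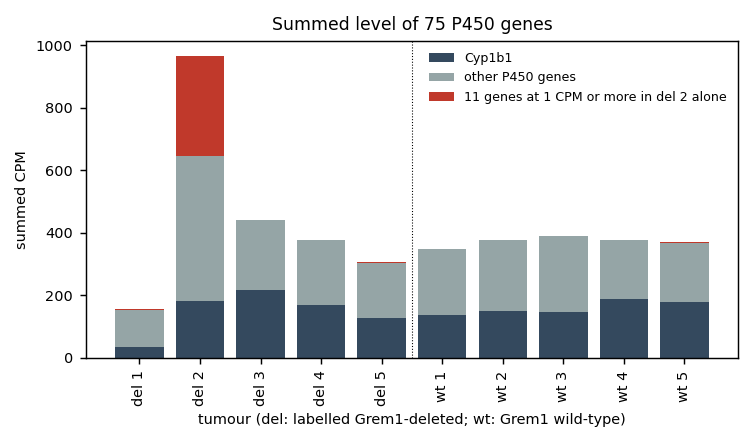
Summed CPM of the 75 P450 genes in each tumour, labelled Grem1-deleted (del) left of wild-type (wt), as stacked bars of Cyp1b1, the other P450 genes and the 11 genes expressed in labelled-deleted tumour 2 alone. The wild-type bars reach 349 to 389 CPM, while the labelled-deleted bars run from 154 to 966 CPM.

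The comparison of the groups asked whether P450 genes differed between tumours of tamoxifen-treated, labelled Grem1-deleted mice and of oil-treated wild-type mice. No P450 gene changed by the test: at a threshold of 0.05 on the Benjamini-Hochberg adjusted p of edgeR, 0 of the 17 tested passed, where 0% of all 16565 genes did, and none had an adjusted p below 0.759. One gene of the 17, Cyp2r1, had an unadjusted p under 0.05 (1 of 17, 5.88%, against 5.93% of all genes), and it was on the higher side, as were 3.47% of all genes. DESeq2 called 0 P450 genes, where it called 0.0308% of all genes, and had 3 at an unadjusted p under 0.05 among 30 with a p (10%, against 6.7% of all genes). These were Cyp2r1, Cyp2u1 and the sparsely counted Cyp1a1. To 11 further P450 genes, Cyp2c65 among them, DESeq2 gave a fold change but no p. By limma-voom 0 were called, where 0% of all genes were, and 1 of 17 had such a p (5.88%, against 5.43% of all genes). In 0 of the 17 did the groups not overlap, against 0.93% of all genes. The log2 fold change of labelled deleted over wild-type was above 0 in 11 and below 0 in 6 (64.7% above, against 55.1% of all genes), with a median of 0.22 against 0.03 over all genes. Without labelled-deleted tumour 2, the filter on low counts was applied anew, so the tested genes were not only these 17. In that fit 7 were above 0 and the median was -0.047. By limma-voom, on the same 17, 7 were above 0 and the median was -0.14. The reported median covers the genes that passed the filter on low counts, and 58 of the 75 did not pass it. Standard errors (SE) of the fold changes ran from 0.13 to 1.02 on the log2 scale. P-values here weigh the group difference against the spread between tumours, which the design text calls biological replicates. Some tumours share an ID number in their labels, and the reported fit has no block for it.

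**Figure D3:**
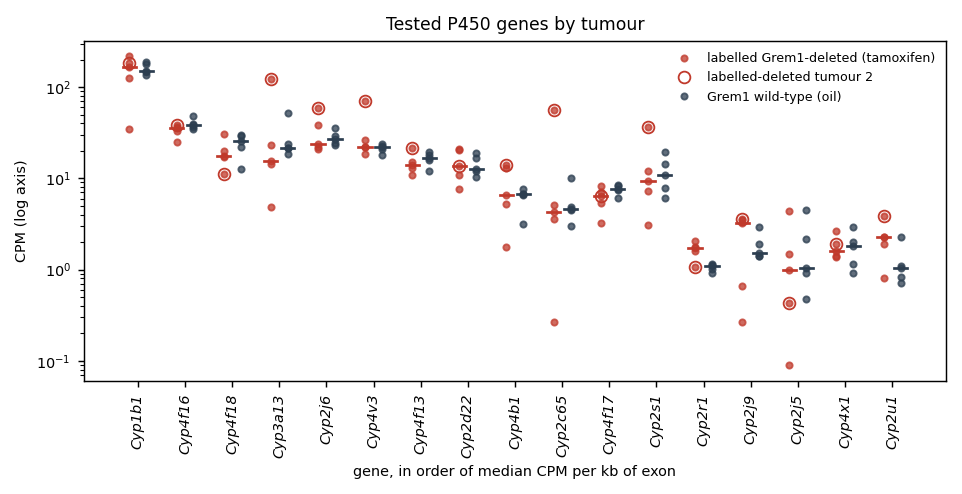
CPM of the 17 tested P450 genes on a log axis, 1 point per tumour with a bar at the group median, labelled Grem1-deleted left of wild-type within each gene and labelled-deleted tumour 2 ringed. The point clouds of the groups overlap in every gene, and the ringed tumour is the highest of all in 9.

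In family 1, the level was that of Cyp1b1, an enzyme of tissues outside the liver that hydroxylates oestradiol and activates polycyclic aromatic hydrocarbons. Cyp1b1 (ENSMUSG00000024087, chr17:79701537-79715061, minus strand, GRCm38) stood at 34.5, 182, 218, 167 and 127 CPM in tumours labelled deleted, against 136, 149, 145, 189 and 179 CPM in wild-type tumours. Labelled-deleted tumour 1 was the lowest of all and tumour 3 of that group the highest, and the groups overlapped. The means were 146 ± 70.1 CPM in tumours labelled deleted and 159 ± 23.1 CPM in wild-type tumours (SD, n = 5 each), a log2 fold change of -0.13 (SE 0.38), which was 0.12 with labelled-deleted tumour 1 left out. Cyp1b1 shared no stretch of 50 bases with another gene, so its counts are not split with a relative. In bulk tissue a lower level can mean fewer cells of a type or less RNA per cell, and these cannot be told apart. Cyp1b1 is known in fibroblasts, and the 6 fibroblast markers summed to 5265 CPM in labelled-deleted tumour 1, against 10642 to 18461 CPM in the other 4 of its group and 10767 to 19115 CPM in wild-type tumours. That tumour also had the lowest sums of all 10 for macrophage markers (1148 CPM, against 2055 to 4486 CPM in the other 9), endothelial markers (159.6 against 273 to 619 CPM), adipocyte markers (3.20 against 17.9 to 147 CPM) and, as given above, epithelial markers. The part of these differences in the Cyp1b1 values was not tested.

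Cyp1a1, the classical target of the aryl hydrocarbon receptor, had 0, 3, 5, 2 and 2 counts in tumours labelled deleted and 0, 0, 1, 0 and 0 counts in wild-type tumours. These counts did not pass the filter of the reported fit, and the largest was 0.410 CPM. DESeq2, which admitted the gene, gave it an unadjusted p under 0.05, as said above, and did not call it. The receptor itself was present: Ahr averaged 60.4 ± 24.8 CPM in tumours labelled deleted and 66.1 ± 8.27 CPM in wild-type tumours (log2 fold change -0.13, SE 0.28). Its partner Arnt had 87.5, 79.5, 80.6, 93.6 and 77.0 CPM in tumours labelled deleted, against 63.0, 77.9, 76.9, 76.1 and 72.1 CPM in wild-type tumours. The lowest tumour labelled deleted lay under the highest wild-type tumour, and the log2 fold change was 0.19 (SE 0.08, unadjusted p = 0.0453). Tiparp, a receptor target that also answers to oestrogen, had 58.8, 49.8, 31.4, 39.7 and 29.9 CPM in tumours labelled deleted and 23.0, 29.7, 26.7, 26.5 and 20.6 CPM in wild-type tumours. Its groups did not overlap, by a margin of 29.9 to 29.7 CPM, as was so in 0.93% of all genes tested. It did not pass (edgeR adjusted p = 0.759, log2 fold change 0.73, SE 0.20). An exon of Tiparp overlaps a gene on the opposite strand. Of the 8 genes of the receptor and its battery, 6 were tested, with 5 above 0 and 1 below 0 and a median of 0.21, and 0 passed.

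In family 2, expression was spread over enzymes of several kinds, and no member passed the test. Cyp2r1, which makes 25-hydroxyvitamin D, had the smallest p of the 17. It stood at 1.78, 1.06, 2.05, 1.71 and 1.58 CPM in tumours labelled deleted, against 1.02, 1.09, 1.16, 0.915 and 1.11 CPM in wild-type tumours. All but tumour 2 of those labelled deleted lay above every wild-type tumour. Its log2 fold change was 0.62 (SE 0.22, edgeR unadjusted p = 0.0181 and adjusted p = 0.759). These are 15 to 32 counts in each tumour labelled deleted and 11 to 15 in each wild-type tumour, near the lowest level that could be tested. Cyp2u1, a hydroxylase of long-chain fatty acids, had 0.801, 3.83, 1.89, 2.30 and 2.30 CPM in tumours labelled deleted and 1.10, 2.28, 0.826, 1.04 and 0.706 CPM in wild-type tumours. Labelled-deleted tumour 1 and wild-type tumour 2 went against the rest of their groups, and the log2 fold change was 0.91 (SE 0.43, unadjusted p = 0.0605). An exon of Cyp2u1 overlaps a gene on the opposite strand, and 5 of its 10 estimated counts were not whole.

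Cyp2j6, of the epoxygenase group that makes epoxides of arachidonic acid, was the most abundant family 2 gene per kilobase. It had 20.9, 58.4, 23.5, 38.17 and 22.2 CPM in tumours labelled deleted and 24.1, 35.9, 28.7, 27.1 and 23.0 CPM in wild-type tumours. Labelled-deleted tumours 2 and 4 were the highest of all, and the log2 fold change of 0.23 (SE 0.29) became -0.081 (SE 0.21) without tumour 2. Cyp2d22, by median the most abundant mouse relative of human CYP2D6 in these tumours, had 7.65, 13.6, 20.8, 20.4 and 10.8 CPM in tumours labelled deleted. In wild-type tumours it had 11.9, 19.1, 12.6, 16.6 and 10.3 CPM. The groups overlapped fully, with a log2 fold change of 0.06 (SE 0.29). Cyp2s1, a P450 of epithelial surfaces, had 3.11, 36.26, 9.44, 12.0 and 7.23 CPM in tumours labelled deleted and 7.78, 14.5, 19.4, 6.04 and 10.9 CPM in wild-type tumours. Labelled-deleted tumour 2 was the highest of all and tumour 1 the lowest, and the log2 fold change of 0.22 (SE 0.58) became -0.55 (SE 0.44) without tumour 2. An exon of Cyp2s1 overlaps a gene on the opposite strand.

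Cyp2c65, an arachidonic acid enzyme of mouse intestine, had the highest fold change of the 17. It stood at 0.267, 56.3, 5.09, 4.22 and 3.62 CPM in tumours labelled deleted, against 4.87, 4.55, 9.99, 4.52 and 3.02 CPM in wild-type tumours. Labelled-deleted tumour 2 alone lay above the wild-type range. The log2 fold change was 1.36 (SE 1.02, unadjusted p = 0.209) with it and -0.70 (SE 0.63) without it. Cyp2c65 shared 20.6% of its stretches of 50 bases with Cyp2c66 and other genes, so part of its count may belong to a relative. The other tested members of family 2, Cyp2j9 at 0.29 (SE 0.60) and Cyp2j5 at -0.25 (SE 0.83), were named after their values were seen. Leaving out 1 tumour moved Cyp2j9 between 0.060 (without labelled-deleted tumour 4) and 0.57 (without labelled-deleted tumour 1). It moved Cyp2j5 between -1.25 (without labelled-deleted tumour 4) and 0.39 (without wild-type tumour 2), across 0.

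Cyp2e1, the ethanol-oxidising enzyme of liver and fat, failed the filter on low counts. It had 0.267, 0.497, 6.81, 1.33 and 0.592 CPM in tumours labelled deleted and 1.34, 0.182, 3.55, 0 and 0.302 CPM in wild-type tumours. The highest tumours, labelled-deleted 3 and wild-type 3, were also those with the most Adipoq, the adipocyte hormone adiponectin, at 5.91 and 4.21 CPM against at most 1.10 CPM in the other 8. The 6 adipocyte markers summed to 3.20 to 147 CPM in tumours labelled deleted and 17.9 to 89.9 CPM in wild-type tumours, and both named tumours had the highest sum of their group. The part of fat cells in these values was not tested. All 9 estimated counts of Cyp2e1 above 0 were not whole, and 3.91% of its stretches of 50 bases were shared, most with Fcho2.

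In family 3, Cyp3a13, an intestinal relative of human CYP3A4, was the gene expressed in every tumour. It had 4.89, 122, 15.6, 14.3 and 23.1 CPM in tumours labelled deleted, against 21.7, 23.8, 52.5, 21.4 and 18.4 CPM in wild-type tumours. Labelled-deleted tumour 2 was the highest of all, tumour 5 of that group lay among the wild-type tumours, and the other 3 lay under all of them. The log2 fold change was 0.38 (SE 0.74) with tumour 2, and -0.92 (SE 0.45, unadjusted p = 0.0714) without it. Like Cyp1b1, it shared no stretch of 50 bases with another gene. The other 6 Cyp3a genes reached 1 CPM in labelled-deleted tumour 2 alone or in no tumour, as described below.

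In family 4, fatty acid hydroxylases of the Cyp4f group made up most of the level. The 4 Cyp4f genes of all tumours had log2 fold changes below 0, and none passed the test. Cyp4f16, a hydroxylase of fatty acids and eicosanoids, had 24.7, 38.03, 32.7, 36.2 and 35.96 CPM in tumours labelled deleted, against 48.3, 34.7, 36.7, 38.9 and 38.11 CPM in wild-type tumours. Labelled-deleted tumour 1 was the lowest and wild-type tumour 1 the highest, and the rest lay together. Its log2 fold change was -0.23 (SE 0.13, unadjusted p = 0.116). Cyp4f16 shared 17.4% of its stretches of 50 bases, most with Cyp4f37.

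Cyp4f18, which inactivates leukotriene B4 in mouse leukocytes, had 17.4, 11.1, 30.5, 17.1 and 19.8 CPM in tumours labelled deleted, against 29.9, 25.4, 29.1, 12.7 and 22.1 CPM in wild-type tumours. The groups overlapped, with the highest and the lowest value both in tumours labelled deleted, and the log2 fold change was -0.31 (SE 0.29). Macrophage markers stood beside it: the 6 genes had log2 fold changes below 0 in all 6 (median -0.53), and summed to 1148 to 3717 CPM in tumours labelled deleted and 2553 to 4486 CPM in wild-type tumours. The same held for 6 of 6 endothelial markers (median -0.43) and 6 of 6 epithelial markers (median -0.44), and in none of the 3 lists did a gene pass the test. The part of these cell types in the Cyp4f18 values was not tested. Cyp4f17 was at -0.31 (SE 0.24) and Cyp4f13 at -0.13 (SE 0.19). An exon of Cyp4f18 overlaps Zfp961 on the opposite strand.

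Cyp4v3, the mouse counterpart of a human fatty acid hydroxylase mutated in a retinal dystrophy, had 18.3, 69.5, 26.6, 21.8 and 21.8 CPM in tumours labelled deleted and 20.7, 23.9, 18.1, 22.8 and 22.1 CPM in wild-type tumours. Labelled-deleted tumour 2 stood far above the other 9, which lay within 18.1 to 26.6 CPM. The log2 fold change was 0.56 (SE 0.35, unadjusted p = 0.137) with that tumour and 0.045 (SE 0.13) without it. An exon of Cyp4v3 overlaps Gm45753 on the same strand. Cyp4b1, a hydroxylase of fatty acids and of furan toxins best known in lung, had 1.78, 14.1, 12.8, 6.51 and 5.19 CPM in tumours labelled deleted. Its values in wild-type tumours were 3.14, 7.65, 6.52, 6.77 and 6.65 CPM. Labelled-deleted tumours 2 and 3 lay above and tumour 1 below all wild-type tumours, with a log2 fold change of 0.39 (SE 0.48). Single tumours labelled deleted moved it, to 0.10 with tumour 2 left out, 0.15 with tumour 3 left out and 0.65 with tumour 1 left out, and leaving out wild-type tumour 1 gave 0.23. It was 0.80 with a block by the tumour ID number, which takes labelled-deleted tumours 1 and 4 out of the comparison. The 4 airway markers summed to 0.178 to 3.69 CPM in tumours labelled deleted and 2.23 to 5.95 CPM in wild-type tumours, with Scgb3a2 at a count of 0 in all and Scgb1a1 at most at 0.182 CPM. Cyp4x1, picked once its values were known, had a log2 fold change of 0.02 (SE 0.34), which ran from -0.17 to 0.28 when single tumours were left out, and all 10 of its estimated counts were not whole.

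**Figure D4:**
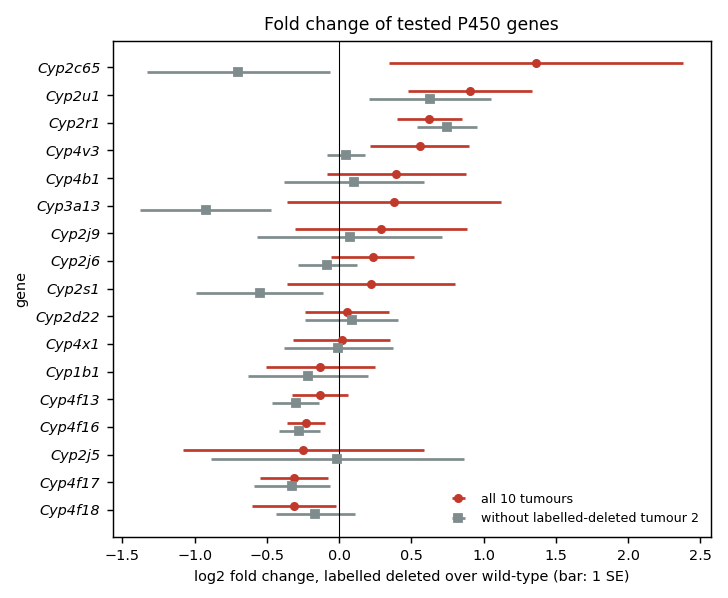
Log2 fold change, labelled deleted over wild-type, of the 17 tested P450 genes, with all 10 tumours (circles) and without labelled-deleted tumour 2 (squares), bars showing 1 SE. Cyp2c65 lies at 1.36 with that tumour and at -0.70 without it, Cyp3a13 at 0.38 and -0.92, and Cyp2r1 at 0.62 and 0.75.

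Labelled-deleted tumour 2 expressed a set of P450 genes that the other 9 tumours barely held. Of the 13 genes at 1 CPM or more in a single tumour, 11 had that tumour as theirs, and they lie in clusters on chromosomes 4, 5, 7, 15, 17 and 19. None of them passed the filter on low counts, so they have no test in the reported fit, and a sole tumour is no evidence on tamoxifen or on Grem1. Cyp3a11, the main drug-oxidising Cyp3a enzyme of mouse liver and gut and a target of the pregnane X receptor, stood at 79.6 CPM there (1122 counts), against at most 0.623 CPM (7 counts) in the others. Cyp3a25, of the same cluster, stood at 45.2 CPM against at most 0.356 CPM, and shared 26.8% of its stretches of 50 bases, most with Cyp3a59. Cyp2b10, the standard target of the constitutive androstane receptor, had 275 counts (19.5 CPM) against at most 3 counts.

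The fatty acid enzymes in this set included Cyp4f14, a leukotriene B4 hydroxylase, at 64.7 CPM against at most 0.427 CPM, and Cyp4f40, a related gene, at 13.6 against at most 0.246 CPM. Cyp4a10, the lauric acid hydroxylase under PPARalpha, had 33 counts (2.34 CPM) against at most 2 counts. From the Cyp2c cluster came Cyp2c68 at 21.3 CPM against at most 0.236 CPM, Cyp2c66 at 12.3 against 0.427, Cyp2c55 at 3.05 against 0.729 and Cyp2c29 at 2.34. Cyp2c55 thus stood only 4.19-fold over the next tumour. Shared stretches of 50 bases made up 43.3% of Cyp2c68 (most with Cyp2c40), 19.5% of Cyp2c66 (most with Cyp2c65) and 29.8% of Cyp4a10 (most with Cyp4a32), so part of these counts may belong to relatives. An exon of Cyp2c29 overlaps Cyp2c53-ps on the same strand. Cyp2c29, a liver epoxygenase, had a count of 0 in all other tumours, so it was at least 93.3-fold higher in tumour 2, against 3 counts over the other 9 together. Cyp2d26 stood at 57.1 CPM against at most 0.427 CPM. The 11 genes summed to 321 CPM in labelled-deleted tumour 2, which was 33.2% of its P450 level, and to 0.305 to 2.14 CPM in each of the other 9.

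Several intestinal epithelium markers were high in the same tumour as these genes. In labelled-deleted tumour 2, Apoa4, an apolipoprotein of absorptive cells, stood at 897 CPM, the intestinal phosphatase Alpi at 884, the disaccharidase Sis at 293 and the intestinal factors Cdx2 and Cdx1 at 35.1 and 22.2. The other 9 tumours held at most 4.72, 3.02, 1.16, 1.07 and 0.0821 CPM of them, in that order. These markers were picked from a list of 12 with their values known. Most of the list sum in those 9 tumours came from markers not named here. Of the 12 markers, 4 were tested, 3 above 0 and 1 below 0, and 0 passed; the list summed to 220.5 to 3671 CPM in tumours labelled deleted and 295 to 513 CPM in wild-type tumours. Markers of liver differed: Fgb, Tat and Serpina1a were at 0, 0.0710 and 0.0710 CPM in labelled-deleted tumour 2, and of its hepatocyte list sum of 740.0 CPM, 726 CPM was Apoa1, which gut also makes. The part of intestinal tissue in these P450 values was not tested.

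**Figure D5:**
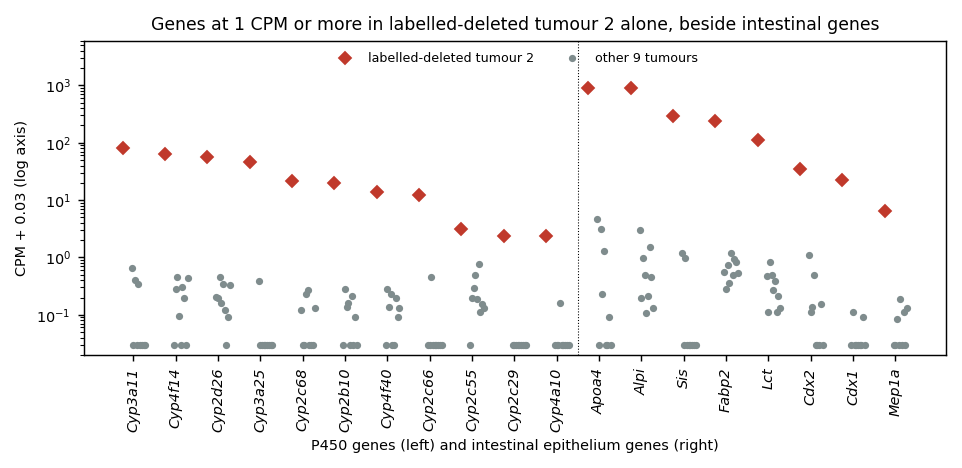
CPM + 0.03 on a log axis of the 11 P450 genes expressed in labelled-deleted tumour 2 alone (left of the dotted line) and of 8 intestinal epithelium genes (right of it), with that tumour as a diamond and the other 9 as points. The 8 were picked, with their values known, from the list of 12 intestinal markers, and the rest of that list is not shown. The diamonds lie from 2.34 to 79.6 CPM in the P450 genes and up to 897 CPM in the intestinal genes shown, above all other tumours in each.

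The receptors of these genes were highest in that tumour as well. Nr1i2 had 0.445, 16.5, 1.48, 1.87 and 0.526 CPM in tumours labelled deleted, against 1.49, 1.28, 1.57, 1.16 and 1.31 CPM in wild-type tumours (log2 fold change 1.61, SE 0.92). Nr1i3 had 7.74, 31.3, 8.37, 7.26 and 9.66 CPM in tumours labelled deleted and 11.7, 9.56, 8.18, 9.95 and 8.37 CPM in wild-type tumours (log2 fold change 0.43, SE 0.41). Without tumour 2 these were -0.31 and -0.21. Exons of Nr1i3 overlap Tomm40l on the opposite strand. Hnf4a, the factor whose site stands in the Cyp3a11 and Cyp2c68 promoters above, had 21.1, 181, 75.5, 58.8 and 95.1 CPM in tumours labelled deleted and 76.6, 78.4, 82.9, 88.3 and 95.4 CPM in wild-type tumours. In those wild-type tumours Cyp3a11 and Cyp2c68 stood at 0.314 CPM at most. The part of these receptors and of Hnf4a in the P450 values was not tested.

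The 2 genes with another sole tumour were Cyp2d10, at 1.57 CPM in wild-type tumour 1, and Cyp2f2, a P450 of airway secretory cells, at 1.07 CPM in labelled-deleted tumour 3; both were named after their values were seen. Cyp2d10 shared 35.8% of its stretches of 50 bases, most with Cyp2d11. Wild-type tumour 1 also held the most of the fibrinogen genes Fgb (22.8 CPM) and Fga (19.6 CPM) and of Hpx (22.2 CPM), against at most 0.263, 0.915 and 1.91 CPM in the other 9. These markers were picked, with their values known, from the list of 10 hepatocyte markers. That whole list summed to 101 CPM in wild-type tumour 1, 740 CPM in labelled-deleted tumour 2 and 8.10 to 37.5 CPM in the rest. The liver genes Cyp2c70 and Cyp2d9 had their highest counts in wild-type tumour 1 too, 7 and 6 counts. The part of liver tissue in these values was not tested.

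The partners of P450 enzymes were present in every tumour and did not pass the test. Por, the electron donor, had 244, 229, 138, 203 and 134 CPM in tumours labelled deleted and 118, 163, 136, 183 and 134 CPM in wild-type tumours (log2 fold change 0.37, SE 0.20, unadjusted p = 0.0868). Labelled-deleted tumours 1, 2 and 4 lay above all wild-type tumours and the other 2 among them. Of 8 electron transfer genes, all tested, 6 were above 0 and 2 below 0, with a median of 0.08, and 0 passed. Of 10 haem synthesis and breakdown genes, 5 lay on each side with a median of 0.02, among them Alad at 0.20 (SE 0.13) and the haem oxygenase Hmox1 at -0.40 (SE 0.26).

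Of 21 P450 genes of other families, 12 were tested, 5 above 0 and 7 below 0, with a median of -0.08 and 0 passing. Tbxas1, thromboxane synthase of macrophages and platelets, had 13.4, 28.2, 33.7, 27.2 and 36.7 CPM in tumours labelled deleted, against 57.9, 31.3, 36.33, 50.2 and 59.3 CPM in wild-type tumours. Labelled-deleted tumours 3 and 5 overlapped the wild-type range and the others lay under it, with a log2 fold change of -0.75 (SE 0.27, unadjusted p = 0.019). The macrophage markers given above stand beside it, and their part was not tested. Cyp39a1, an oxysterol hydroxylase, was at -0.49 (SE 0.22, unadjusted p = 0.0511). Cyp7a1, the rate-limiting enzyme of bile acid synthesis, and Cyp19a1, aromatase, had a count of 0 in all tumours.

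Other drug-handling genes followed labelled-deleted tumour 2. Ugt1a1, the bilirubin glucuronosyltransferase, stood at 83.0 CPM there and 0 to 4.35 CPM elsewhere, Ugt2b34 at 171 against 2.67 to 19.9, and the flavin monooxygenase Fmo5 at 65.1 against 4.18 to 8.45. The log2 fold changes were 3.04 (SE 1.37), 1.80 (SE 0.95) and 1.47 (SE 0.73), and -0.097, -0.077 and -0.042 without that tumour. Ugt1a1 shares exons with the other genes of its cluster, so its count is uncertain. Abcc3, an export pump, was at -0.36 (SE 0.17). Of the 10 genes of the pregnane X and androstane receptor list 8 were tested, 7 above 0 and 1 below 0 (median 0.75), and of 17 conjugation and monooxygenase genes 14 were tested, 10 above 0 and 4 below 0 (median 0.16), with 0 passing in both. Over all genes tested, 55.1% were above 0. The first list summed to 195, 792, 290, 247 and 237 CPM in tumours labelled deleted, against 227 to 302 CPM in wild-type tumours. The second summed to 251, 698, 522, 382 and 332 CPM against 320 to 420 CPM. Of 8 receptors and factors of the PPAR and HNF list 7 were tested, 4 above 0 and 3 below 0 (median 0.03), with Nr1h4, the bile acid receptor, at 0.96 (SE 0.52) and Foxa2 at -0.56 (SE 0.30).

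Oestrogen-responsive genes were set beside the P450 genes, since tamoxifen is a ligand of the oestrogen receptor. Greb1 had 14.1, 19.02, 33.4, 32.3 and 9.07 CPM in tumours labelled deleted and 3.30, 8.38, 2.64, 1.89 and 2.02 CPM in wild-type tumours, and Tff1 10.5, 36.5, 52.8, 44.4 and 93.9 against 311, 99.3, 391, 178 and 110 CPM. In neither gene did the groups overlap, as was so in 0.93% of all genes tested. Neither passed (edgeR adjusted p = 0.759 for both, log2 fold changes 2.57, SE 0.51, and -2.19, SE 0.56). Exons of both overlap genes on the opposite strand. Of 8 such genes 7 were tested, 6 above 0 and 1 below 0 (median 0.69), with 0 passing by edgeR or limma-voom. DESeq2 called 1 of the 7, Greb1 (adjusted p = 0.000865).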

How the data were processed

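Polyadenylated RNA of 10 tumours, 5 a group by the genotype in the labels, was sequenced. The authors deposited estimated counts per gene. The submitters' processing notes name bcl2fastq 2.0, FastQC 0.11.9, HISAT2 2.2.1, RSEM 1.3.3, DESeq2 1.32.0 and build mm10, with no roles. Estimated counts split reads that match several genes: 14.2% of the P450 values above 0 were not whole (over 0.005 from a whole number), against 18.6% of all, and 21 of the 75 genes share over 20% of their 50-base stretches with another gene. The annotation release and the strand setting were not given in the sources used here. Normalized log2 values per tumour, deposited by the authors with an unnamed transformation, served 1 alternative alone.

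Counts were rounded, filtered (edgeR 4.0.16, filterByExpr, minimum count 10) and scaled by TMM, and 16565 genes were tested with the quasi-likelihood F test, Benjamini-Hochberg adjusted over all of them at 0.05. CPM use the scaled sizes, and a positive log2 fold change means higher in tumours labelled deleted. Variation between tumours (common biological coefficient 0.355) set the precision, except for genes of few counts, where counting did. No libraries agreed within sampling noise (chi-square per degree of freedom at least 25.9 within a group). The test was checked on simulated counts in which, unlike here, no tumour stood apart across genes. That check does not show which changes could be found in these tumours. Coordinates and exons are from GENCODE M21, which held all 75 genes, and promoters from RefSeq GRCm38.p6. Exons of 14 of the 75 overlap another gene.

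The P450 genes and gene lists were chosen with earlier results of these data known. Named were a panel of 15 genes, the 4 members with the highest median CPM per kb in each family, the 6 with the smallest p, members at least 5-fold over the second tumour, and up to 2 genes per related list. Others, marker genes included, were named after their values were seen. Alternatives were DESeq2 1.42.0, limma 3.58.1 (voom, and the log2 values), other scalings and filters, blocks by replicate and tumour ID number, and leaving out libraries. R was 4.3.3 and Python 3.11.15.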

Additional observations from a re-analysis of the deposited data

Results flagged for a closer look

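In 79 groups of 5 tumours, the value farthest from the rest was set against Dixon's 95% limit, which chance passes in about 1 group of 20, and 13 groups passed it. Of these, 8 were of genes named because 1 tumour stood at least 5-fold over the second, a choice by much the same distance, so their number says nothing against chance. Among the 67 groups of other genes 5 passed. In 11 of the 13 the tumour was labelled-deleted tumour 2, the one with intestinal markers, which makes them 1 pattern and not 11 separate ones. It stood above the other 4 of its group in Cyp2b10 (19.5 CPM), Cyp2c29 (2.34 CPM), Cyp2c68 (21.3 CPM), Cyp2d26 (57.1 CPM), Cyp3a25 (45.2 CPM), Cyp4a10 (2.34 CPM), Cyp4f14 (64.7 CPM), Cyp4f40 (13.6 CPM) and Cyp4v3 (69.5 CPM). It also stood above them in Fmo5 (65.1 CPM) and Nr1i3 (31.3 CPM). Among wild-type tumours, tumour 3 stood high in Cyp3a13 (52.5 CPM), and tumour 1 stood low in Cyp4b1 (3.14 CPM).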

How the results depend on the processing

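The count of 0 P450 genes called held under all 20 alternative fits; over all genes DESeq2 called 7 and the reported fit 0. The P450 genes tested numbered 17 in the reported fit, 60 with no low-count filter, 30 by DESeq2 and 47 from the deposited log2 values. Those with a log2 fold change above 0 numbered 11, against 40 with no filter, 19 by DESeq2, 30 from the deposited values, 7 by limma-voom and 7 to 14 when single tumours were left out, with 7 without labelled-deleted tumour 2. Fits without a tumour applied the filter on low counts anew, so their tested genes were not always the same 17. Correlations of deviations in same-numbered tumours were 0.07, 0.11, 0.32, -0.02 and 0.39, and with the replicate block 6 P450 genes were above 0. The best-matching wild-type tumours of labelled-deleted tumours 1 to 5 were, in order, 2, 1, 3, 2 and 5. For labelled-deleted tumours 2, 3 and 5 the match bore the same tumour ID number. Labelled-deleted tumours 1 and 4 bear numbers that no other tumour bears, so they could not match in this way. The reported fit has no block for that number. A fit with it was an alternative, in which labelled-deleted tumours 1 and 4, alone under their numbers, add nothing to the comparison of groups. These values do not settle whether tumours were paired. The median log2 fold change of 0.22 ran from -0.047 to 0.41 when single tumours were left out, and was -0.11 with the replicate block, -0.14 by limma-voom and 0.45 over the 60 genes with no filter, where the 17 of the reported fit had 0.22. The expressed genes kept to the ranges given above under other levels. Of 660 log2 fold changes of 33 named genes under the other settings, 628 kept their sign, and 21 genes kept it throughout. Signs turned in Cyp2c65 (replicate block -0.12, limma-voom -0.16, without labelled-deleted tumours 1 and 2 -0.33, single tumours left out -0.70 to 1.71), Cyp3a13 (replicate block -0.41, limma-voom -0.31, without both -0.64, deposited values -0.20, single tumours left out -0.92 to 0.75) and Cyp2s1 (replicate block -0.11, limma-voom -0.019, without both -0.29, deposited values -0.047, single tumours left out -0.55 to 0.48). They also turned in Cyp1b1 (block by tumour ID number 0.16, without both 0.10, single tumours left out -0.33 to 0.12), Ahr (tumour ID block 0.12, single tumours left out -0.31 to 0.069), Cyp2d22 (replicate block -0.0037, single tumours left out -0.11 to 0.21), Nr1i2 (without both -0.071, single tumours left out -0.31 to 1.89) and Nr1i3 (without both -0.18, single tumours left out -0.21 to 0.56). Leaving out single tumours gave -0.081 to 0.36 for Cyp2j6, -0.042 to 1.72 for Fmo5, -0.097 to 3.36 for Ugt1a1 and -0.077 to 2.10 for Ugt2b34. Beyond those 33 genes, signs turned in Cyp2j9 (replicate block -0.035, limma-voom -0.15), Cyp2j5 (without both 0.36, single tumours left out -1.25 to 0.39) and Cyp4x1 (upper quartile scaling -0.0032, single tumours left out -0.17 to 0.28). Labelled-deleted tumour 2 was the one left out at the low end of Cyp2c65, Cyp3a13, Cyp2s1, Cyp2j6, Fmo5, Nr1i2, Nr1i3, Ugt1a1 and Ugt2b34. Greb1 alone among the named genes gained a call, with DESeq2 (log2 fold change 2.58, adjusted p = 0.000865). The cause of these shifts was not tested, beyond the larger number of genes that other filters admit. Most of the 75 genes did not reach the count filter in enough tumours to be tested in the reported fit. Of these, 15 had a count of 0 in every tumour, while others, such as Cyp3a11, were well counted in 1 tumour alone.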
